A study of Mus musculus with 8 samples.

Results

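A set of 10 genes that switch on and maintain the multiciliated cell programme was followed in mouse lung RNA after naphthalene injury: Gmnc, Mcidas, Myb, Foxn4, Trp73, Ccno, Deup1, Foxj1, Rfx2 and Rfx3. They were chosen by gene symbol, all 10 were found among the 22244 genes of the count table, and 9 had enough counts to be tested. Each library was made from total RNA of the right cranial lung lobe of an adult male C57BL/6J mouse, with 4 untreated control mice and 4 mice injected with naphthalene. Naphthalene is a hydrocarbon that airway club cells turn into toxic products, and it is used to injure the airway epithelium. The labels call the controls untreated; dose, vehicle and sampling time were not stated in the sources used here. Injection itself and naphthalene therefore cannot be told apart. The lobe holds all lung cell types, so multiciliated cells are a minority of the RNA measured.

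Multiciliated cells arise when airway progenitors leave the cell cycle and build many centrioles, each of which becomes the basal body of a motile cilium. The geminin relatives GMNC and MCIDAS act at the top of the programme, MCIDAS working with the E2F4 and E2F5 proteins, and the transcription factors MYB, p73 (from Trp73) and FOXN4 act early with them. Cyclin O (Ccno) and DEUP1 serve the deuterosome, the structure on which most new centrioles are made. FOXJ1 and the RFX factors turn on the genes of the motile axoneme and stay on in the mature cell.

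Libraries held 10743842 to 16792306 counts. Lung identity was visible in every library through the alveolar genes Sftpc (5162 to 7538 CPM, read counts scaled to the library total by the TMM method) and Ager (1349 to 1866 CPM). The summed level of 33 motile cilium structure genes, which mark multiciliated cells, was 1873 to 2698 CPM in controls and 414 to 649.8 CPM after naphthalene. Control 4 stood above the other controls in that sum. Control 4 also held the highest level within its group for 7 of the 10 regulators, and control 3 the lowest for 7. Control 3 stood low for Mcidas and naphthalene 1 high for Foxj1, and values without them are given where calls or values move. This pair was singled out from these same values and no other pair was left out. Calls of Mcidas and Foxj1 without it therefore depend on that choice.

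Most regulators of multiciliogenesis that could be tested were lower after naphthalene, and by very different amounts. Of the 9 tested, 6 fell and 0 rose at an adjusted p of 0.05 (edgeR quasi-likelihood test, Benjamini-Hochberg over all 14192 genes tested), where 14.6% of all tested genes fell. The 6 were Gmnc, Myb, Trp73, Deup1, Rfx2 and Rfx3. The median log2 fold change of the 9 was -1.0, against 0.01 over all tested genes. The same 6 of all 10 members had control and naphthalene values that did not overlap, against 14.7% of tested genes lower without overlap. In whole-lobe RNA, fewer multiciliated cells and less RNA per cell cannot be told apart. The count ranged from 4 (without naphthalene 3) to 7 (without naphthalene 1) when 1 library was left out. It was 8 without control 3 and naphthalene 1, a pair chosen for its values of members, so that count is not an independent check.

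**Figure D1:**
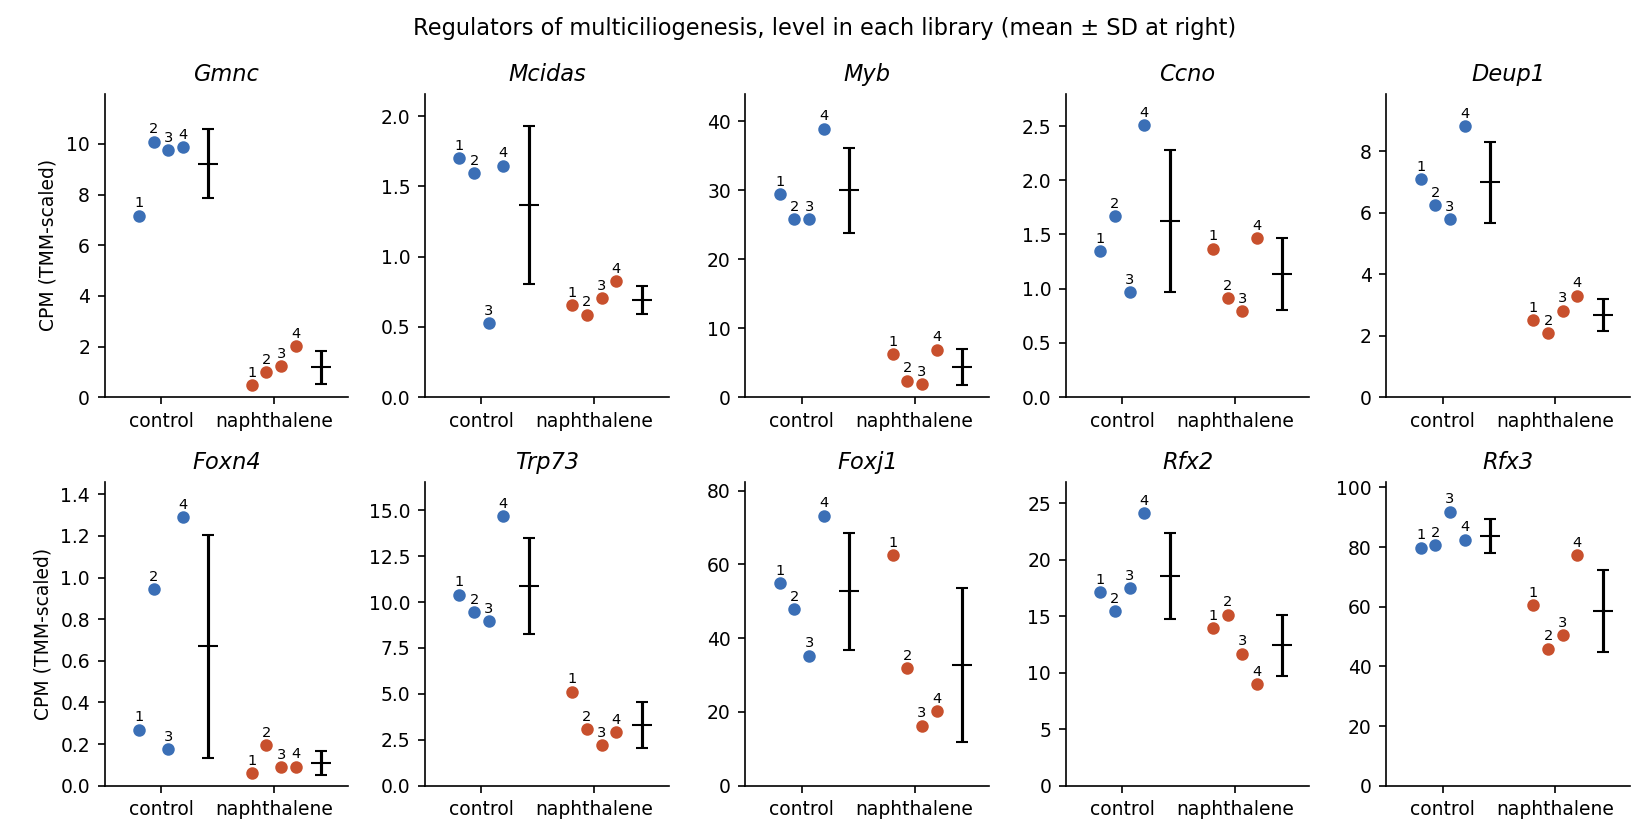
Level of each of the 10 regulators in CPM, 1 point per library with its replicate number, and the mean ± SD of each group of 4 at the right. Gmnc, Myb, Deup1, Trp73, Rfx2 and Rfx3 have no naphthalene point as high as the lowest control point, whereas Foxj1 in naphthalene 1 (62.5 CPM) lies above 3 of the 4 controls.

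RFX proteins bind X-box motifs, and 2 of the RFX genes were among those that fell. The start-site windows of the members were therefore searched for a part of that motif. RefSeq windows of 300 bases (250 before to 50 after a transcript start, build GRCm38.p6) were matched by symbol for 9 members, giving 12 windows; Foxj1 was not among them. The letters GTTNCCA, a part of the X-box and not the whole motif, were searched on both strands. They occurred in 5 of the 12 windows and in 16.6% of all 32851 windows. Those 5 belonged to Gmnc, Mcidas, Ccno, Deup1 and Rfx2. The windows of Mcidas, Ccno, Deup1 and 1 of the 2 Gmnc windows are shown because they hold such a match in genes of both early steps, upstream control and centriole amplification. Capitals mark each match, and all are written 5′ to 3′ on the gene's own strand.
Mcidas chr13:112993618-112993917 (+): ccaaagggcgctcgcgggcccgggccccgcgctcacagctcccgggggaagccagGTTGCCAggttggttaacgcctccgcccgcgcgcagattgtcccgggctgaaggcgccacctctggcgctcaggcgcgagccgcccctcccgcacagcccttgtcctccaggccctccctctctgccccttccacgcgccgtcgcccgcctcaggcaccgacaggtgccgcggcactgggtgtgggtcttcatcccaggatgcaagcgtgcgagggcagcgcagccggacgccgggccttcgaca
Ccno chr13:112987552-112987851 (+): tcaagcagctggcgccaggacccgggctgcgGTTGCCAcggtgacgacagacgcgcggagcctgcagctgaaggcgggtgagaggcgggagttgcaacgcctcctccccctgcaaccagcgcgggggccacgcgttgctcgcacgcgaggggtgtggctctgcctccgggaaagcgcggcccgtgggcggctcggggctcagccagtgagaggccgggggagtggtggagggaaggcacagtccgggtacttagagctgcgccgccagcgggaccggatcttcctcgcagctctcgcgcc
Deup1 chr9:15627797-15628096 (-): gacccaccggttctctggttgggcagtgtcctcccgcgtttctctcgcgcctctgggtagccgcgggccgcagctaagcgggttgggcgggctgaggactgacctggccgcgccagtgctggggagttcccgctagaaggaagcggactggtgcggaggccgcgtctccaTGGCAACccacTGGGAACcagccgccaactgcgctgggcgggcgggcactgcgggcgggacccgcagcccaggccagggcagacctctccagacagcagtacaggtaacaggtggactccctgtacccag
Gmnc chr16:26968196-26968495 (-): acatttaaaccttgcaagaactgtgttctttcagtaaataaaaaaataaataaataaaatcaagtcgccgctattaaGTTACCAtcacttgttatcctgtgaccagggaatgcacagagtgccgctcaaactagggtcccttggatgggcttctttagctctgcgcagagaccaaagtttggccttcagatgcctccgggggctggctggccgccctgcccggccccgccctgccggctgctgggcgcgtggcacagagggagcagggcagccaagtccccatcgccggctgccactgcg
The match began 195 bases before the start site in Mcidas, 219 in Ccno and 173 in Gmnc. Deup1 held 2, at 80 and 69 bases before its start site, both reading on the opposite strand. These are matches of letters to a part of the X-box and were not measured as bound sites. Whole X-boxes were not searched for. Any part of the RFX genes in the change of other members was not tested.

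Other motifs were spread over different members. A forkhead motif of the FOXJ1 type, GTAAACA, was found in 1 of the 12 windows, that of Myb, against 3.65% of all windows. The E2F motif TTCCCGC was found in 2, those of Deup1 and Trp73, against 4.6% of all windows. The MYB motif TAACNG was found in 5 windows, of Gmnc, Foxn4, Rfx2 and both windows of Deup1, against 23.3% of all windows. In Rfx2 the RFX and MYB matches overlapped. Mcidas and Ccno, which did not pass the test of expression, carried the RFX letters, as did Deup1 and Gmnc, which fell.

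Gmnc, the geminin relative at the head of the programme, had the lowest fold change of the 9 tested members. Its control levels were 7.17, 10.1, 9.75 and 9.88 CPM, and after naphthalene they were 0.476, 0.978, 1.23 and 2.01 CPM. The groups were far apart, the highest naphthalene library lying well under the lowest control. The log2 fold change was -3.03 (SE 0.39, n = 4 per group, edgeR adjusted p = 8.82e-05), and it ranged from -3.41 to -2.71 over 17 other analyses of the same counts, passing in all 17. The naphthalene values rest on 8, 15, 14 and 22 counts.

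Myb, a transcription factor of early multiciliated cells that is also used by blood cell precursors, fell nearly as far. Control libraries held 29.4, 25.8, 25.7 and 38.9 CPM, and naphthalene libraries held 6.25, 2.41, 1.85 and 6.87 CPM. Every naphthalene library was below every control, and within the treated group naphthalene 2 and 3 were lowest. The log2 fold change was -2.78 (SE 0.48, edgeR adjusted p = 0.000217), passing in all 17 other analyses. Lymphocyte markers also moved in these libraries, where 14.6% of all tested genes fell. Of the 10 T cell genes listed 9 were tested and 8 fell. Their summed level went from 74.0 to 86.7 CPM in controls to 38.7 to 49.2 CPM. All 8 tested B cell genes of 9 fell, from 165 to 220 CPM in sum to 54.7 to 93.4 CPM. The defining markers Cd247 and Cr2 were at 0 in every library. Of 8 tested blood progenitor and mast cell genes 3 fell, with sums of 367 to 403 and 198 to 401 CPM. Their part in the change of Myb was not tested.

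Mcidas, the second geminin relative, was scarce. The control libraries had 19, 22, 6 and 23 counts, or 1.70, 1.60, 0.527 and 1.65 CPM, and naphthalene libraries held 11, 9, 8 and 9 counts, or 0.655, 0.587, 0.703 and 0.824 CPM. Control 3 was below all 4 naphthalene libraries, while the other controls were above them all. The log2 fold change was -1.0 (SE 0.36) with an edgeR adjusted p of 0.0650. Without control 3 it was -1.26 with an adjusted p of 0.0103, and without control 3 and naphthalene 1 it was -1.23 (0.0154). With voom and quality weights it was -1.19 (limma adjusted p = 0.0133).

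Trp73, which encodes the p53 relative p73 that acts upstream of Foxj1, fell as well. It stood at 10.4, 9.43, 8.96 and 14.7 CPM in controls and at 5.12, 3.07, 2.2 and 2.93 CPM after naphthalene. The groups did not overlap, and naphthalene 1 was the highest treated library. The log2 fold change was -1.68 (SE 0.29, edgeR adjusted p = 0.000850), passing in all 17 other analyses. Foxn4, a forkhead factor of early multiciliated cells, was too low to be tested, its counts being 3, 13, 2 and 18 in the control libraries against 1, 3, 1 and 1 in the treated ones. Controls 2 and 4 had many more Foxn4 counts than the rest, but control 3 (0.176 CPM) lay below naphthalene 2 (0.196 CPM). When the filter on low counts was left out its log2 fold change was -2.56 with an edgeR adjusted p of 0.0268.

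The 2 genes of centriole amplification differed from each other in their values. Deup1, which organises the deuterosome, stood at 7.08, 6.24, 5.80 and 8.81 CPM in controls and at 2.50, 2.09, 2.81 and 3.30 CPM after naphthalene. Its groups were well separated, with a log2 fold change of -1.40 (SE 0.18, edgeR adjusted p = 0.000734), and it passed in all 17 other analyses. Ccno, the cyclin of the same step, stood at 1.34, 1.67, 0.967 and 2.51 CPM in controls and at 1.37, 0.913, 0.791 and 1.47 CPM after naphthalene. Those ranges overlapped. Its log2 fold change of -0.53 (SE 0.32) had an edgeR adjusted p of 0.273, and it passed in 0 of 17 other analyses. The value was -0.23 without control 4 and -0.82 without control 3 and naphthalene 1. These values rest on 9 to 35 counts per library.

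Ccno and Mcidas lie next to each other on the chromosome, followed by Cdc20b and Gpx8 in the RefSeq gene order. Cdc20b, which hosts the miR-449 genes in its introns and acts in centriole release from deuterosomes, fell. Its control values were 1.79, 2.47, 1.76 and 1.86 CPM and its naphthalene values 0.595, 0.522, 0.703 and 0.824 CPM. The log2 fold change was -1.59 (SE 0.16, edgeR adjusted p = 0.00163). Gpx8, a glutathione peroxidase relative that overlaps Cdc20b on the opposite strand, stood at 50.4 ± 5.46 and 41.7 ± 11.8 CPM (mean ± SD, n = 4 per group, edgeR adjusted p = 0.257), and it passed as lower without naphthalene 4 (log2 fold change -0.47, adjusted p = 0.0247) and with voom and quality weights (-0.46, limma adjusted p = 0.00875). Of the 4 neighbours, then, Cdc20b alone passed with all libraries in, and the miRNA genes were not analysed here.

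Foxj1, the master factor of motile cilia, varied widely among treated mice. Controls held 54.9, 47.8, 35.2 and 73.2 CPM, and naphthalene libraries held 62.5, 31.8, 16.3 and 20.1 CPM. Naphthalene 1 reached the control range, naphthalene 2 to 4 lay below the lowest control. The log2 fold change was -0.68 (SE 0.48), with an edgeR adjusted p of 0.188. Without naphthalene 1 it was -1.20 (adjusted p = 0.00450), and without control 3 as well it was -1.35 (0.00159). It also passed with voom and quality weights (-0.80, limma adjusted p = 0.0187) and with a block for the replicate number (-0.82, edgeR adjusted p = 0.0457). Naphthalene 1 and 2, with the higher Foxj1 levels, were also the deepest treated libraries (16792306 and 15454146 counts, against 11798360 and 11233709). The part of depth in this spread was not tested.

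Rfx2 and Rfx3, whose proteins bind X-box motifs together with FOXJ1 at ciliary genes, fell by modest amounts. Rfx2 stood at 17.1, 15.5, 17.5 and 24.1 CPM in controls and at 13.9, 15.1, 11.7 and 8.97 CPM after naphthalene. The lowest control and the highest treated library nearly met. Its log2 fold change was -0.57 (SE 0.21, edgeR adjusted p = 0.0397). Leaving out any of control 1, 3 and 4 and naphthalene 3 and 4 ended that call (adjusted p of 0.0565 up to 0.128), as did voom with quality weights (-0.36, limma adjusted p = 0.0897) and a block for the replicate number (-0.57, edgeR adjusted p = 0.0642).

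Rfx3 stood at 79.8, 80.7, 91.9 and 82.4 CPM in controls and at 60.5, 45.9, 50.5 and 77.2 CPM after naphthalene. Naphthalene 4 came close to the controls, the other treated libraries did not. Its log2 fold change was -0.52 (SE 0.17, edgeR adjusted p = 0.0219), lost without control 3 (0.0531), naphthalene 2 (0.0646) or naphthalene 3 (0.0640). Rfx3 is expressed in many cells with a primary cilium, so its level in the lobe is not that of multiciliated cells alone.

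Per kilobase of exon, with lengths from GENCODE M21, the members covered a wide range of levels in controls. Foxj1 was highest at 20.1 ± 6.04 CPM per kb, followed by Rfx3 at 7.59 ± 0.51, Myb at 3.35 ± 0.69 and Rfx2 at 2.54 ± 0.52. Deup1 (2.11 ± 0.40), Trp73 (1.96 ± 0.47) and Gmnc (1.61 ± 0.24) came next, each within about 1 SD of the gene before it. Ccno (0.635 ± 0.257) and Mcidas (0.576 ± 0.237) were well below Gmnc and within 1 SD of each other. Foxn4 was lowest at 0.199 ± 0.159. After naphthalene Foxj1 and Rfx3 stayed on top at 12.5 ± 7.99 and 5.31 ± 1.26 CPM per kb, and Gmnc stood at 0.205 ± 0.112, below Mcidas at 0.291 ± 0.042.

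**Figure D2:**
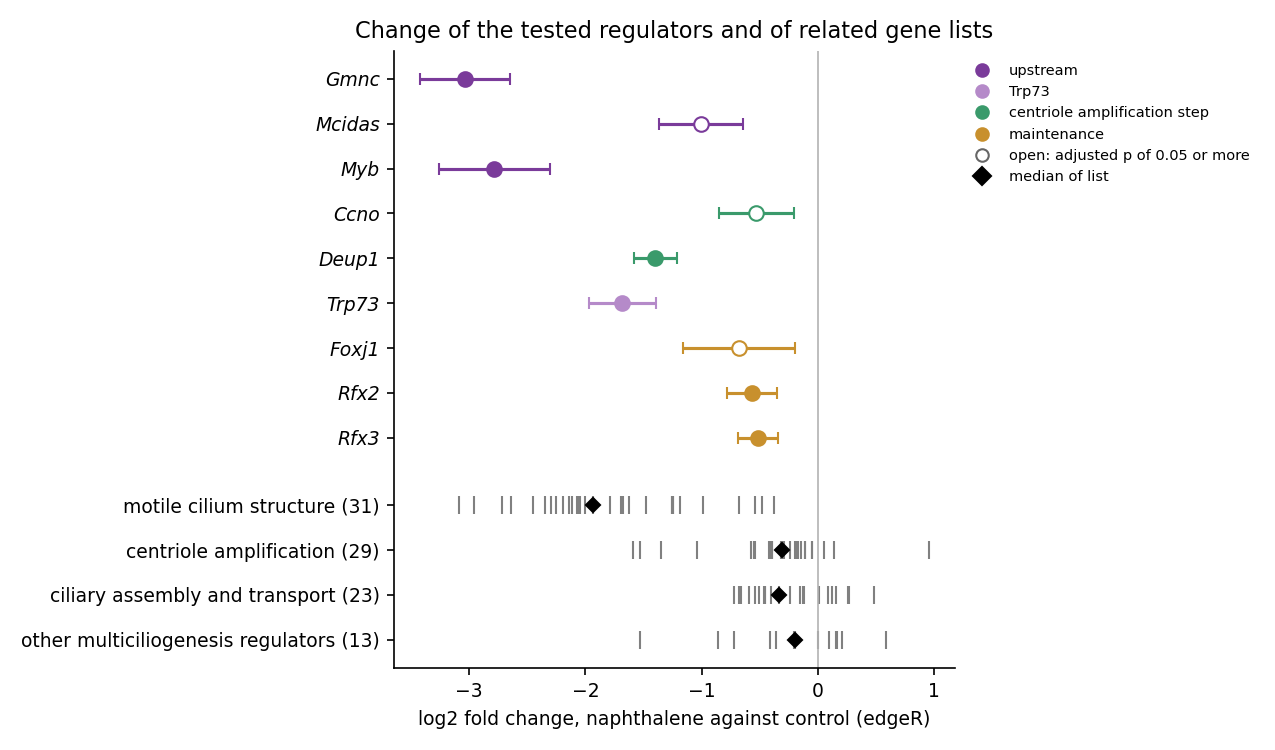
Log2 fold change of each tested regulator (circle, with SE; filled where the edgeR adjusted p was under 0.05), coloured by role, above the single genes (ticks) and medians (diamonds) of 4 related lists, with the number of genes tested in brackets. Gmnc and Myb lie near -3, Foxj1, Rfx2, Rfx3 and Ccno between -0.7 and -0.5, and the median of the motile cilium structure genes lies at -1.93.

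Upstream and maintenance factors were compared within each library. The mean log2 CPM of Gmnc, Mcidas and Myb was 2.88, 2.95, 2.48 and 3.15 in controls and 0.57, 0.37, 0.41 and 1.30 after naphthalene. That of Foxj1, Rfx2 and Rfx3 was 5.40, 5.30, 5.27 and 5.72 in controls and 5.24, 4.82, 4.42 and 4.60 after naphthalene. The upstream mean was thus lower by a log2 value of -2.21 (SE 0.26) and the maintenance mean by -0.65 (SE 0.20). Their difference, upstream minus maintenance, went from -2.55 ± 0.18 to -4.11 ± 0.60 (SD, n = 4 per group), a shift of -1.55 (SE 0.31) on the log2 scale. All 4 naphthalene libraries (-4.67, -4.45, -4.01 and -3.30) lay below all 4 controls (-2.79 to -2.34). The members were chosen with earlier results of these data known, so this shift is a description without a test.

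In mean log2 CPM, Gmnc and Myb carried that shift. The log2 ratio of Gmnc to Foxj1, Rfx2 and Rfx3 shifted by -2.10 (SE 0.81), -2.36 (SE 0.54) and -2.40 (SE 0.36), and that of Myb by -2.09 (SE 0.48), -2.35 (SE 0.55) and -2.39 (SE 0.36), with no overlap between groups in any of these 6 pairs. The ratio of Mcidas to the same genes shifted by 0.09 (SE 0.52), -0.17 (SE 0.43) and -0.21 (SE 0.41), and the groups overlapped in all 3 pairs. Mcidas was scarce, control 3 was low at 6 counts, and the prior count of 2 in log2 CPM weighs most on such a gene. By edgeR log2 fold change Mcidas (-1.0) was lower than Foxj1 (-0.68), Rfx2 (-0.57) and Rfx3 (-0.52), though Mcidas and Foxj1 did not pass. The sign of the Mcidas shift against Foxj1 therefore depends on the measure. With Gmnc and Myb alone as upstream factors the shift was -2.28.

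**Figure D3:**
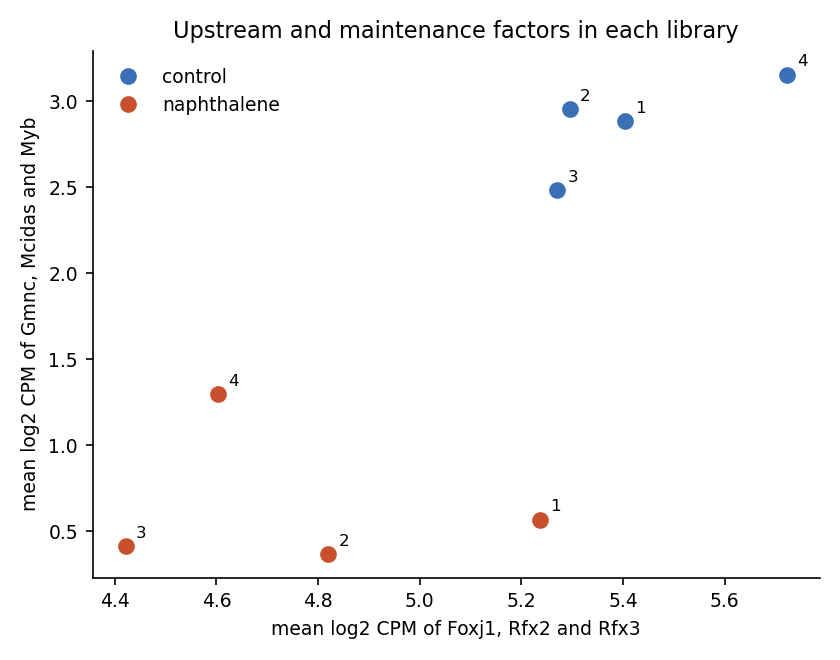
Mean log2 CPM of Gmnc, Mcidas and Myb (vertical) against that of Foxj1, Rfx2 and Rfx3 (horizontal), 1 point per library with its replicate number. Controls sit at the upper right, and naphthalene 1 keeps a maintenance mean of 5.24 close to the controls with an upstream mean of 0.57.

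Genes of the motile cilium itself gave a scale for the regulators. Of 34 listed genes 31 were tested and 28 fell, with a median log2 fold change of -1.93, where 14.6% of all tested genes fell. Examples were Hydin of the central apparatus (-2.64, SE 0.23, edgeR adjusted p = 1.61e-05), the cadherin gene Cdhr3 (-2.72, SE 0.26), the adenylate kinase gene Ak7 (-2.11) and the inner arm dynein gene Dnah12 (-3.09). Spag16 and Cfap126 were at 0 counts in every library. The gene list holds no member, but it was chosen with earlier results of these data known.

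The members were then tested against the summed counts of those 31 genes, which changed by a log2 value of -1.98 between group means of CPM. Scaled in this way nearly the whole table moves upward: 96.5% of tested genes were higher and 0.55% lower at an adjusted p of 0.05, or 97% in either direction. The spread of the structure sum between mice enters every gene at once, while the test treats genes as separate. Adjusted p values and calls on this scale can therefore overstate the certainty. Of the 9 tested members 5 were higher and 2 lower. The 2 were Gmnc and Myb, which fell by more than the structure genes in sum. Per 1000 structure counts Gmnc stood at 3.83, 5.21, 5.19 and 3.66 in controls and at 0.753, 2.25, 2.97 and 3.10 after naphthalene (scaled log2 fold change -1.04, edgeR adjusted p = 0.00337). Myb stood at 15.7, 13.3, 13.7 and 14.4 in controls and at 9.88, 5.56, 4.45 and 10.6 after naphthalene (-0.88, edgeR adjusted p = 0.00171). Neither gene had overlapping groups. The share of all genes without overlap on this scale was not computed. For Gmnc the call was lost without naphthalene 1 (-0.69, adjusted p = 0.0616) and without control 3 as well (-0.61, 0.131), while Myb passed in all 11 other analyses.

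Foxj1, Rfx2, Rfx3, Ccno and Mcidas were higher on this scale, as most genes were. Foxj1 stood at 29.3, 24.7, 18.8 and 27.1 per 1000 structure counts in controls and at 98.8, 73.3, 39.2 and 31.0 after naphthalene (scaled log2 fold change 1.28, edgeR adjusted p = 1.95e-06). Every treated library was above every control, with naphthalene 1 and 2 far above, on a scale where 96.5% of tested genes were called higher. Rfx2 (1.48), Rfx3 (1.43) and Ccno (1.46) passed in all 11 other analyses, as did Foxj1. Mcidas (0.98, edgeR adjusted p = 0.0331) did not pass in 5 of the 9 other analyses that tested it. The call was lost without control 3, naphthalene 2 or naphthalene 3 (adjusted p 0.0625 to 0.135). It was also lost without control 3 and naphthalene 1 together, and with the median of the list as the scale (0.240).

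Deup1 and Trp73 did not pass on this scale. Deup1 had a scaled log2 fold change of 0.60 (edgeR adjusted p = 0.0621) and passed as higher without naphthalene 1 (0.72, adjusted p = 0.0334). Trp73 had 0.29 (adjusted p = 0.342). The structure genes themselves differed on it: 10 of the 31 were higher, 4 lower and 17 did not pass, from -1.13 for Dnah12 to 1.61 for Cfap52, and all 9 tested members lay inside that range.

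**Figure D4:**
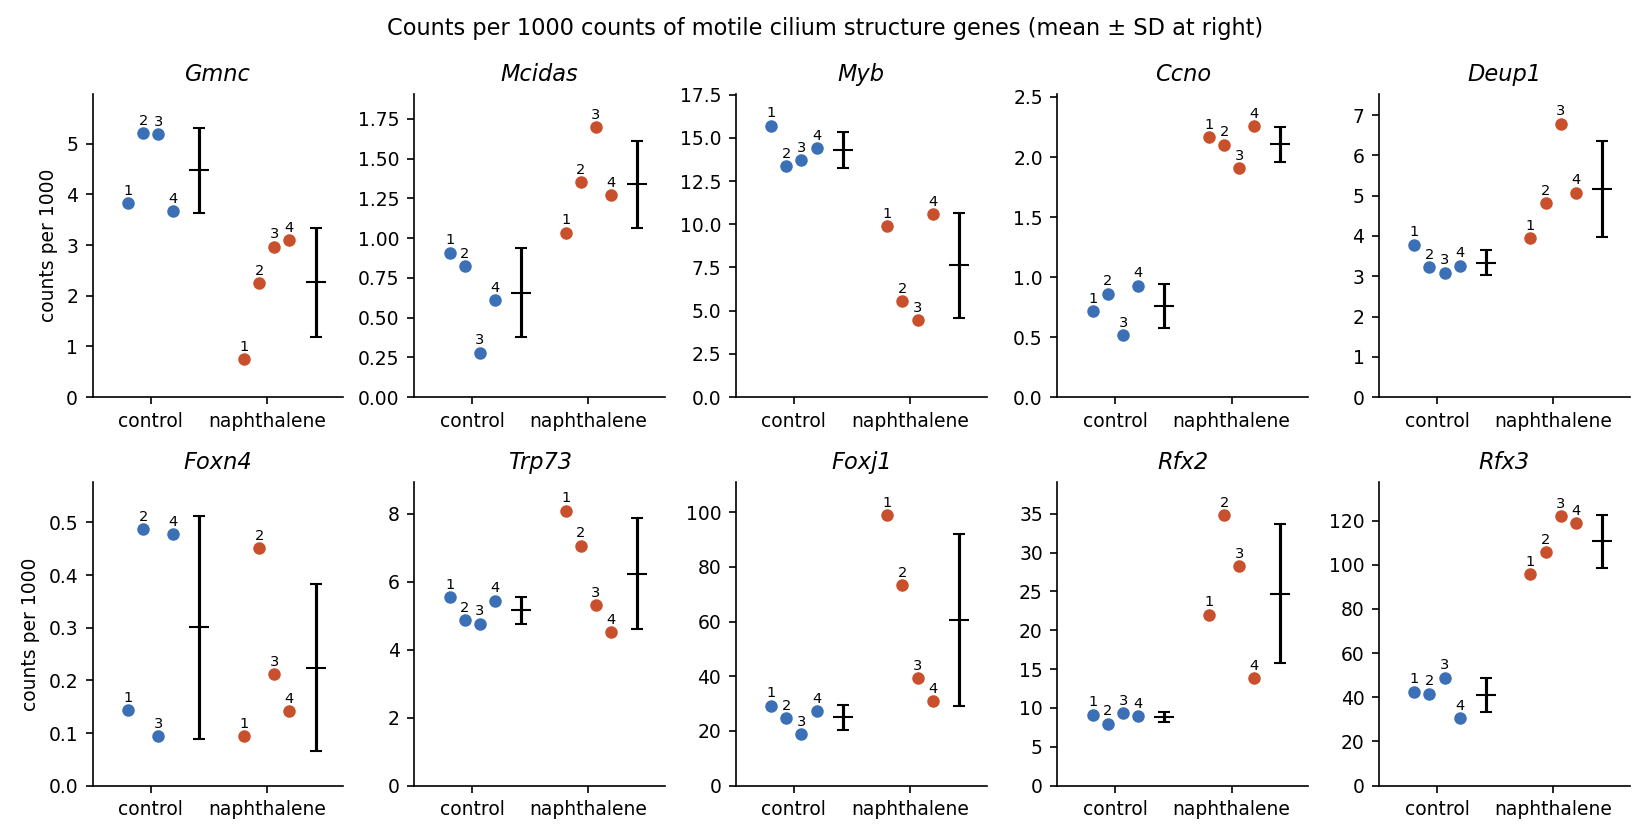
Counts of each regulator per 1000 counts of the tested motile cilium structure genes, 1 point per library with its replicate number, and mean ± SD of each group of 4 at the right. Foxj1, Rfx2, Rfx3, Ccno, Mcidas and Deup1 lie higher in all treated libraries, Gmnc and Myb lower, and Trp73 and Foxn4 overlap. On this scale 96.5% of all tested genes were called higher.

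Other factors that act with the members were counted next. Of 17 other regulators of multiciliogenesis 13 were tested, 4 fell and 0 rose, with a median log2 fold change of -0.20. Over all tested genes 14.6% fell and 14.1% rose. Gmnn, which encodes geminin, the replication inhibitor related to GMNC and MCIDAS, fell from 10.2 ± 1.53 to 6.21 ± 1.26 CPM (log2 value -0.72, SE 0.18, edgeR adjusted p = 0.0128). Sox2, a factor of airway progenitors, and Rfx1 fell by 0.86 and 0.41 on the log2 scale. Without control 4 or naphthalene 2 the list held 2 such genes. Leaving out control 1, control 4, naphthalene 2 or naphthalene 3 ended the call of Sox2 (adjusted p of 0.0605 up to 0.0806). Rfx1 kept its call only when control 3 or naphthalene 1 was the library left out, and otherwise had an adjusted p of 0.0552 up to 0.0923.

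The E2F partners of MCIDAS did not pass: E2f4 stood at 26.4 ± 2.54 and 29.3 ± 4.50 CPM and E2f5 at 23.2 ± 1.47 and 26.1 ± 5.67 CPM (n = 4 per group, edgeR adjusted p 0.401 and 0.434). Trp63, the basal cell relative of Trp73, stood at 1.47 ± 0.72 and 2.24 ± 0.82 CPM (edgeR adjusted p = 0.283). These 3 genes were named after their values were seen. Proliferation markers also moved: 5 of 12 tested fell, against 14.6% of all tested genes. Their sums were 87.0 to 137 CPM in controls and 46.6 to 86.7 CPM after naphthalene. The part of proliferation in the change of Gmnn was not tested.

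Genes of centriole assembly fell in part. Of 29 tested, 11 fell and 1 rose, with a median log2 fold change of -0.31. The shares over all tested genes were 14.6% lower and 14.1% higher. Ccdc78, which takes part in deuterosome-based amplification, fell from 24.2 ± 4.64 to 8.33 ± 3.30 CPM (-1.53, SE 0.36, edgeR adjusted p = 0.00150), and the centrin gene Cetn4 fell by 1.35 on the log2 scale (SE 0.27). Poc1a, a centriole stability gene, rose from 5.46 ± 1.14 to 10.6 ± 2.09 CPM (0.96, SE 0.21, edgeR adjusted p = 0.00473). Cep152, whose protein binds DEUP1 at the deuterosome, stood at 19.7 ± 2.18 and 19.0 ± 1.92 CPM (edgeR adjusted p = 0.782). It was named after its values were seen. Without control 4, naphthalene 2 or naphthalene 3 the number past the threshold was 7.

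Transport genes used by all cilia had modest changes. Of 23 tested, 12 fell and 1 rose, against 14.6% lower and 14.1% higher over all tested genes. Of those that fell, 0 did so by a log2 value of 1 or more, against 26 of 31 for the motile cilium structure list. Ift81, Ift80 and Ift122, of the intraflagellar transport trains, fell by 0.68, 0.60 and 0.73 on the log2 scale (SE 0.10, 0.10 and 0.15), and Ift20 rose by 0.48 (SE 0.07). Rfx2 and Rfx3, with log2 values of -0.57 and -0.52, lay among these genes in size of change.

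Different genes were most like Foxj1 and Gmnc over the 8 libraries. The 5 genes most like Foxj1 by Pearson r of log2 CPM, among 13488 named genes, were Cabp7 (r = 0.989), Iqce (0.988), Tspan17 (0.987), the collagen gene Col15a1 (0.981) and Dhx16 (0.979). None of the 5 passed between groups, and with each group centred on its mean r stayed at 0.970 to 0.987. The 5 most like Gmnc were the water channel gene Aqp4 (r = 0.995), Eml5 (0.989), the transporter gene Slco1a5 (0.989), Adam28 (0.988) and Cnksr2 (0.988). All 5 fell, by 2.37, 0.54, 2.75, 1.93 and 1.97 on the log2 scale, and r with groups centred was 0.874 to 0.954. These are descriptions over libraries that share groups and depth.

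Members were also unlike each other within groups. Over the 45 pairs of members r ran from 0.34 to 0.96 across all libraries, and with groups centred it ran from -0.76 (Gmnc with Foxj1) to 0.95 (Trp73 with Foxj1), 12 pairs being below 0. Naphthalene 4 held the highest level in its group for 6 of the 10 members and naphthalene 1 for 2, Foxj1 and Trp73. Airway markers moved beside the members: 7 of 8 tested club cell genes fell, against 14.6% of all tested genes. Their sums were 5234 to 10590 CPM in controls and 1260 to 3101 CPM after naphthalene. Of 7 tested epithelial genes 2 rose and 0 fell, where 14.1% of all tested genes rose, and Elf3 was at 0 counts in every library. The 2 were Krt8 (means of 157 and 447 CPM) and Krt18 (87.2 and 244 CPM), and the rest did not pass. These keratins made up most of the change in the sum of the list, which was 797 to 909 CPM and 1057 to 1708 CPM. Among the treated libraries the club cell sum was lowest in naphthalene 1, where Foxj1 was highest. It was next lowest in naphthalene 4 (1571 CPM), where Foxj1 was low at 20.1 CPM, and control 4 was the highest library in both. The part of other cell types in these levels was not tested.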

How the data were processed

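The table the authors deposited holds raw read counts for each gene symbol. The submitters' processing notes name HISAT2 2.2.1, Trim Galore 0.6.7, edgeR 4.2.1, featureCounts 2.0.6 and mm39, with no role or order, and a stranded total RNA kit was used per the labels' protocols. Neither the annotation nor the strand setting was stated in the sources used here, so Trp73, Myb, Deup1 and Rfx3, which have opposite-strand neighbours in GENCODE M21, and Cdc20b with Gpx8 may share reads.

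Columns were matched to mice by library name. Differences were tested with edgeR 4.0.16 in R 4.3.3 (TMM, filterByExpr with minimum count 10 and minimum total 15, quasi-likelihood test, Benjamini-Hochberg adjustment over all genes tested, threshold 0.05). Separate libraries are treated as separate mice per the labels. SEs are those of differences in mean log2 CPM (prior count 2). The scaled fit used summed motile cilium structure counts as library sizes, and its p values leave out that the error of this sum is shared by all genes. No 2 libraries were duplicates: over the 12 within-group pairs the chi-square divided by its degrees of freedom was 5.75 to 51.2. In simulated counts for naphthalene against control the procedure called 90% of 50 genes at a log2 change of -1 and 100% of 50 at -2, among 14087 genes. Alternatives used limma 3.58.1 and DESeq2 1.42.0.

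Members and lists were chosen with earlier results of these data known. Named genes were all members, up to 4 genes past the threshold with the smallest p per list, the Mcidas neighbours, and the 5 genes most like Foxj1 and Gmnc (mean CPM of at least 1). Ccdc114, an older symbol of Odad1, is listed beside it and the gene was counted once; the miR-449 genes did not match a symbol of the table. The values of 1 listed gene are not reported here.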

Additional observations from a re-analysis of the deposited data

Results flagged for a closer look

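Within groups of 4 libraries, 8 of 102 checks found 1 library far from the other 3, where chance gives about 1 in 20. Among the members, Gmnc in control 1 (7.17 CPM, others 9.75 to 10.1) and Mcidas in control 3 (0.527 CPM, others 1.60 to 1.70) stood low. Cdc20b in control 2 stood high at 2.47 CPM (others 1.76 to 1.86). In control 4 Cdhr3 stood at 87.7 CPM (others 57.9 to 61.8), Cnksr2 at 17.3 CPM (others 13.1 to 13.2) and the summed motile cilium structure genes at 2698 CPM (others 1873 to 1935). Ift81 in naphthalene 4 stood at 40.5 CPM (others 31.2 to 32.2), and the summed T cell genes in control 3 at 74.0 CPM (others 84.5 to 86.7).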

How the results depend on the processing

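Gmnc, Myb, Deup1 and Trp73 kept their direction and call in all 17 alternatives (RLE or upper quartile scaling, no filter or a CPM of 1 in 4 libraries, DESeq2, voom, voom with quality weights, the replicate block, each library left out, and control 3 with naphthalene 1 left out), and Ccno passed in none. Rfx2 passed in 10, Rfx3 in 14, Foxj1 in 4 of 17 and Mcidas in 3 of the 14 in which it was tested, all as lower. With quality weights 6503 genes passed in place of 4075, and 2 genes of the Mcidas-Ccno locus in place of 1; the cause was not tested. The shift of upstream minus maintenance was -2.28 with Gmnc and Myb only, since Mcidas, which changed less, was left out. Scaled to the median of the structure genes, Trp73 turned from 0.29 to -0.15 (edgeR adjusted p = 0.643). Leaving out 1 library gave 2929 to 5058 genes and 4 to 7 members past the threshold, 6 to 7 members on the scaled test, 2 to 4 other regulators, 1 to 2 locus genes, 7 to 15 centriole genes, 28 to 29 structure genes, 9 to 13 transport genes and a shift of -1.82 to -1.36.

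Replicate numbers did not pair the libraries: r of same-numbered deviations was -0.09 to 0.29, and 1 of 4 controls and 2 of 4 naphthalene libraries matched their own number best. With the replicate block 4363 genes and 6 members passed, Foxj1 (-0.82, adjusted p = 0.0457) among them and Rfx2 (-0.57, 0.0642) not, and 8 members passed on the scaled test. Power at the counts of Mcidas, Ccno and Foxn4 was not tested.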
